A study of Mus musculus with 4 samples.

Results

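The replication-dependent histone genes make the bulk of the protein around which newly copied DNA is wrapped. They were taken as every protein-coding gene of the deposited table whose name begins with Hist1h, Hist2h, Hist3h or Hist4h. This gave 45 of the 20421 genes, of which 6 encode the linker histone H1, 4 encode H2A, 14 encode H2B, 10 encode H3 and 11 encode H4. The genes were chosen by name and not by their values.

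Brain RNA of C57BL/6 mouse embryos at embryonic day 15 (E15) was compared between FOXM1f/+;Nestin-Cre animals, called the transgenic library here, and wild type (WT) animals. The title of the series names the human FOXM1 gene, a transcription factor of the cell cycle, and Nestin-Cre is a recombinase driver that acts in neural progenitors and their descendants. GEO's labels list 4 samples, 2 per genotype, but the table has 1 read column per genotype and names no sample, so the number of embryos behind a column is unknown and there is no replicate check. The WT samples have titles that name nestin in 1 case and foxm1 in the other, so a WT animal may carry one of the alleles alone. Every interval below is a 95% interval of counting error for 1 library against 1 library and leaves out the spread between animals.

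Replication-dependent histone genes lie in clusters and are transcribed mainly during S phase, when a cell copies its DNA. Their messengers usually carry no poly(A) tail. Instead they end a few bases after a conserved stem-loop, which is bound by the stem-loop binding protein Slbp and is needed for processing, translation and rapid decay at the end of S phase. Some members also have a polyadenylation signal further downstream and give polyadenylated messengers, mainly in differentiating cells. H2A, H2B, H3 and H4 form the nucleosome core, and H1 binds the DNA between nucleosomes. In the embryonic forebrain, S phase takes place in neural progenitors, and neurons have left the cell cycle.

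The stem-loop was read from the annotated transcripts of GENCODE release M21 (build GRCm38), since it is the element that defines this kind of messenger. It was searched as 16 bases with complementary ends of 6 bases around a loop of 4. It was found in 35 of the 45 genes and, over all 67 genes of this name in the annotation, in 46. The lines below give it in capitals with 5 bases on each side, for the members with the most reads and for those whose values are discussed at length.
Hist3h2ba (H2B, chr11:58949344-58949369, + strand): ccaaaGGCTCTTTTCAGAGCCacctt
Hist3h2a (H2A, chr11:58955167-58955192, + strand): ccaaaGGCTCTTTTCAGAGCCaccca
Hist1h1c (H1, chr13:23739507-23739532, + strand): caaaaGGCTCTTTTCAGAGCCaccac
Hist1h3a (H3, chr13:23761885-23761910, − strand): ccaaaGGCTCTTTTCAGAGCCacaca
Hist1h3c (H3, chr13:23745042-23745067, − strand): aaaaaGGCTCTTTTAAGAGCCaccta
Hist1h3e (H3, chr13:23561898-23561923, − strand): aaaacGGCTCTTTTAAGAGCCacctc
Hist1h4i (H4, chr13:22040961-22040986, − strand): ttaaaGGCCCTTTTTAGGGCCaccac
Hist1h4j (H4, chr13:21735432-21735457, + strand): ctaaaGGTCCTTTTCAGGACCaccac
The form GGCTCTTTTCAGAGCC was the most frequent, in 26 of the 46 genes, and GGCTCTTTTAAGAGCC was found in 6. The stem separated the types. All 12 H4 genes with a match had the stem GGCCCT (10 genes) or GGTCCT (2 genes), and all matches in H1, H2A, H2B and H3 genes had GGCTCT. The pattern was not found in the annotated transcripts of the other 10 members of the table, among them Hist2h2be and Hist1h2bc. Some of these transcripts are short, such as those of Hist1h4k (312 bases), Hist1h2bl (381) and Hist1h3h (411). A stem-loop past the annotated end could not be found, so a missing match does not show that the gene lacks one.

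The annotated transcripts of the most read members ran well past the stem-loop, by 169 bases in Hist3h2ba, 330 in Hist1h4i, 840 in Hist1h1c and 1643 in Hist3h2a. Each of these transcripts had a polyadenylation signal (AATAAA or ATTAAA) within its last 50 bases, and so did Hist2h2be. The signals are shown in capitals, because they mark the second way in which these messengers can end.
Hist3h2ba (chr11:58949495-58949524, + strand): cataatggtattAATAAAtttggttcaatt
Hist3h2a (chr11:58956785-58956814, + strand): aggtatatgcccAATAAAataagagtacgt
Hist2h2be (chr3:96223705-96223734, + strand): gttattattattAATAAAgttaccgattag
Hist1h4i (chr13:22040639-22040668, − strand): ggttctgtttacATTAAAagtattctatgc
Hist1h1c (chr13:23740330-23740359, + strand): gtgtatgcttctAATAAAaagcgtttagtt
In all, 14 of the 45 members had such a signal near the end. Whether the libraries were made from poly(A) RNA or from RNA depleted of ribosomal RNA was not given in the sources used here. In a poly(A) library a messenger that ends at the stem-loop would be largely lost, so levels below are levels of what the libraries could capture.

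The table held 17856653 reads for the transgenic and 17543705 for the WT library, and values are given as reads and as CPM, reads scaled to the library total, where 1 read is 0.0560 and 0.0570 CPM. Foxm1 itself had 1289 and 1139 reads, or 72.2 and 64.9 CPM, a ratio of 1.11 (1.03 to 1.21). The row is the mouse gene, and whether reads of a human sequence were counted there was not given in the sources used here. Markers of neurons (5 of 5 genes) and of dividing progenitors (6 of 6) had reads in both libraries, as brain tissue should. The libraries also differed in Xist (9628 and 5 reads) and Ddx3y (0 and 484 reads), so the sex of the source differed between the columns and cannot be told apart from genotype. Reads on 3 choroid plexus markers summed to 197 (transgenic) and 11837 (WT).

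Histone cluster genes took 5821 reads in the transgenic and 5052 in the WT library. This was 0.0326% of all reads (exact 0.0318% to 0.0334%) and 0.0288% (0.0280% to 0.0296%), a ratio of 1.13 (1.09 to 1.18). A single gene, the H2B gene Hist3h2ba, supplied 61.5% of these reads in the transgenic and 63.1% in the WT library. Without it the remaining 44 members had 2240 and 1863 reads, 0.0125% and 0.0106% of each library, and a ratio of 1.18 (1.11 to 1.26). The sum was therefore higher in the transgenic library with and without its largest member. In whole brain RNA, a different share of dividing cells and a different amount of RNA per cell cannot be told apart.

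**Figure D1:**
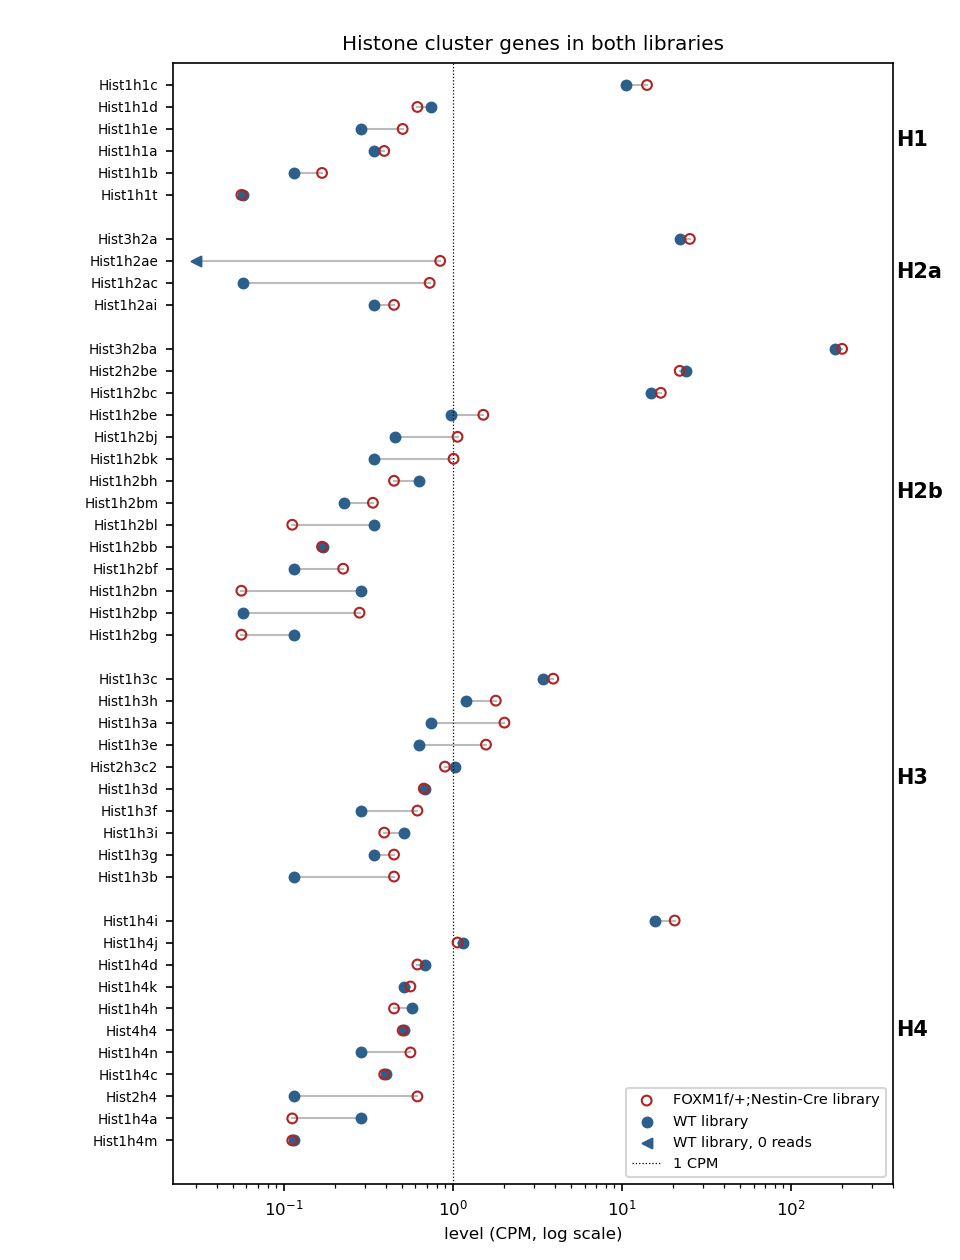
Level of each of the 45 histone cluster genes in CPM on a log axis, open red circles for the transgenic and filled blue circles for the WT library, grouped by histone type, 1 library each. Hist3h2ba stands highest, at 200.5 and 181.7 CPM, 5 further genes lie between 10 and 26 CPM in both libraries, and most of the others lie under 1 CPM (dotted line), where a few reads separate the circles.

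Most members were thinly read. The median member had 16 reads in the sum of both libraries, 12 of 45 had a mean of at least 1 CPM, and Hist3h2ba ranked at 1010 of all 20421 genes by mean CPM. Levels per kilobase of annotated exon compare genes only roughly, since annotated transcripts can run past the stem-loop and unique sequence differs between genes. By this measure Hist3h2ba stood at 327 CPM per kb in the transgenic and 296 in the WT library. Next in that order came Hist1h4i with 28.2 and 21.6, Hist1h2bc with 14.7 and 12.9, Hist3h2a with 11.7 and 10.2, and Hist2h2be with 8.38 and 9.09 CPM per kb. Hist1h1c had 9.01 and 6.79 CPM per kb and Hist1h3c 6.22 and 5.43, so Hist1h1c and Hist2h2be changed places between the libraries. The median of the 45 members was 0.571 CPM per kb as a mean of both libraries, with a range from 0.0619 to 311.

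Among the H2B genes, Hist3h2ba (ENSMUSG00000056895, chr11:58948920-58949533, + strand) had 3581 reads in the transgenic and 3189 in the WT library, 200.5 and 181.7 CPM. Its ratio was 1.10 (1.05 to 1.16), a difference of small size that exceeded counting error. Hist2h2be, an H2B gene with a variant protein known from olfactory sensory neurons, had 392 and 418 reads, 21.9 and 23.8 CPM, and a ratio of 0.921 (0.801 to 1.06). Hist1h2bc had 303 and 261 reads, 16.97 and 14.87 CPM, and a ratio of 1.14 (0.963 to 1.35). Both of these intervals include 1. Hist1h2be had 27 and 17 reads and a ratio of 1.56 (0.820 to 3.05), and its exons overlap those of Hist1h1e on the same strand.

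The other 10 H2B genes had at most 19 reads in a library. Hist1h2bk had 18 reads in the transgenic and 6 in the WT library, a ratio of 2.95 (1.12 to 9.07). Hist1h2bj, its neighbour in the same cluster, had 19 and 8 reads and a ratio of 2.33 (0.975 to 6.16). Of these 10, only Hist1h2bk had an interval off 1. Hist1h2bm (6 and 4 reads), Hist1h2bf (4 and 2) and Hist1h2bp (5 and 1) had more reads in the transgenic library, Hist1h2bh (8 and 11), Hist1h2bl (2 and 6), Hist1h2bn (1 and 5) and Hist1h2bg (1 and 2) had fewer, and Hist1h2bb had 3 in each. Differences of this size were not detectable at this depth.

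All 4 H2A genes had more reads in the transgenic library. Hist3h2a, which lies beside Hist3h2ba on chromosome 11 (ENSMUSG00000078851, chr11:58954685-58956830, + strand), had 450 reads in the transgenic and 385 in the WT library, 25.2 and 21.9 CPM, and a ratio of 1.15 (1.00006 to 1.32). The lower bound touches 1, and the exons overlap those of Trim17 on the same strand, so reads of the 2 genes may be mixed. Hist1h2ae had 15 reads in the transgenic and 0 in the WT library, at least 4.91-fold higher against a floor of 3 reads in the WT library, a bound that leaves out the counting error of the 15 reads. The lower limit of its 95% counting interval was 3.52. Hist1h2ac had 13 reads and 1 read, a ratio of 12.8 (1.92 to 543), and Hist1h2ai had 8 and 6. Hist1h2ae and Hist1h2ac were the H2A genes with the widest contrast, and together with Hist1h2ai they rest on 36 reads against 7, a ratio of 5.05 (2.22 to 13.5). Each of the 4 also overlaps a predicted gene on the opposite strand, and Hist1h2ac overlaps another, Gm24991, on its own strand, so its reads may be mixed as well. The strand setting of the counting was not given in the sources used here.

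The H3 genes had few reads, and as a sum they had the largest ratio of the types. Hist1h3c, the most read of them (ENSMUSG00000069310, chr13:23744973-23745602, − strand), had 70 reads in the transgenic and 60 in the WT library, 3.92 and 3.42 CPM, with a ratio of 1.15 (0.800 to 1.65). Hist1h3a (ENSMUSG00000069265, chr13:23761853-23762386, − strand) had 36 and 13 reads, 2.02 and 0.741 CPM, with a ratio of 2.72 (1.41 to 5.59). Hist1h3e (ENSMUSG00000069273, chr13:23561534-23562369, − strand) had 28 and 11 reads, 1.57 and 0.627 CPM, with a ratio of 2.50 (1.21 to 5.57). The intervals of Hist1h3a and Hist1h3e lie above 1, that of Hist1h3c does not, and all 3 overlap each other. Hist1h3h had 32 and 21 reads and a ratio of 1.5 (0.837 to 2.73). The other 6 H3 genes had between 2 and 18 reads in a library. Hist1h3f (11 and 5), Hist1h3g (8 and 6) and Hist1h3b (8 and 2) had more in the transgenic library, Hist2h3c2 (16 and 18) and Hist1h3i (7 and 9) fewer, and Hist1h3d had 12 in each.

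One gene dominated H4. Hist1h4i (ENSMUSG00000060639, chr13:22040636-22041362, − strand) had 366 reads in the transgenic and 276 in the WT library, 20.5 and 15.7 CPM, and a ratio of 1.30 (1.11 to 1.53). Hist1h4j, the next in reads, had 19 and 20 and a ratio of 0.933 (0.471 to 1.84). Hist2h4 had 11 and 2 reads, a ratio of 5.40 (1.18 to 50.2). Apart from Hist1h4i and Hist2h4, no H4 gene had an interval off 1. Hist1h4k (10 and 9) and Hist1h4n (10 and 5) had more reads in the transgenic library, Hist1h4d (11 and 12), Hist1h4h (8 and 10) and Hist1h4a (2 and 5) had fewer, and Hist4h4 (9), Hist1h4c (7) and Hist1h4m (2) had the same number in each.

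Linker histone reads came almost only from Hist1h1c. It had 251 reads in the transgenic and 186 in the WT library, 14.1 and 10.6 CPM, and a ratio of 1.33 (1.09 to 1.61) (ENSMUSG00000036181, chr13:23738808-23740367, + strand). The other replicating-cell linker genes had 11 and 13 reads (Hist1h1d), 9 and 5 (Hist1h1e), 7 and 6 (Hist1h1a) and 3 and 2 (Hist1h1b). Hist1h1t, the linker histone of the testis, had 1 read in each library. Of the 6 linker genes only Hist1h1c differed by more than counting error.

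Summed over all members of a type, reads were higher in the transgenic library for each of the 5 types. H3 had 228 and 157 reads and the largest ratio, 1.43 (1.16 to 1.76). H1 had 282 and 213 reads and a ratio of 1.30 (1.08 to 1.56), H4 had 455 and 357 and a ratio of 1.25 (1.09 to 1.44), and H2A had 486 and 392 and a ratio of 1.22 (1.06 to 1.40). H2B, with 4370 and 3933 reads, had the smallest ratio, 1.09 (1.05 to 1.14). The H3 interval lies wholly above the H2B interval, by a margin of 1.16 against 1.14, and every other pair of types overlaps. Without the members that have under 50% unique 50-base stretches, an alternative chosen after seeing the data, H3 stood at 1.41 (1.07 to 1.86) and H2B at 1.09 (1.04 to 1.14), and these overlap too. The type sums rested on their most read gene to an unequal degree. Without it, H3 stood at 1.60 (1.24 to 2.08) and H2A at 5.05, whereas H1 stood at 1.13 (0.652 to 1.96), H2B at 1.04 (0.941 to 1.15) and H4 at 1.08 (0.790 to 1.48), intervals that include 1. The gene left out of H3 was Hist1h3c, with a ratio of only 1.15, and Hist1h3a and Hist1h3e stayed in. The H3 sum can therefore still rest on those genes. The 6 H3 genes under 1 mean CPM had 62 and 52 reads in sum, a ratio of 1.17 (0.797 to 1.73), which includes 1.

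**Figure D2:**
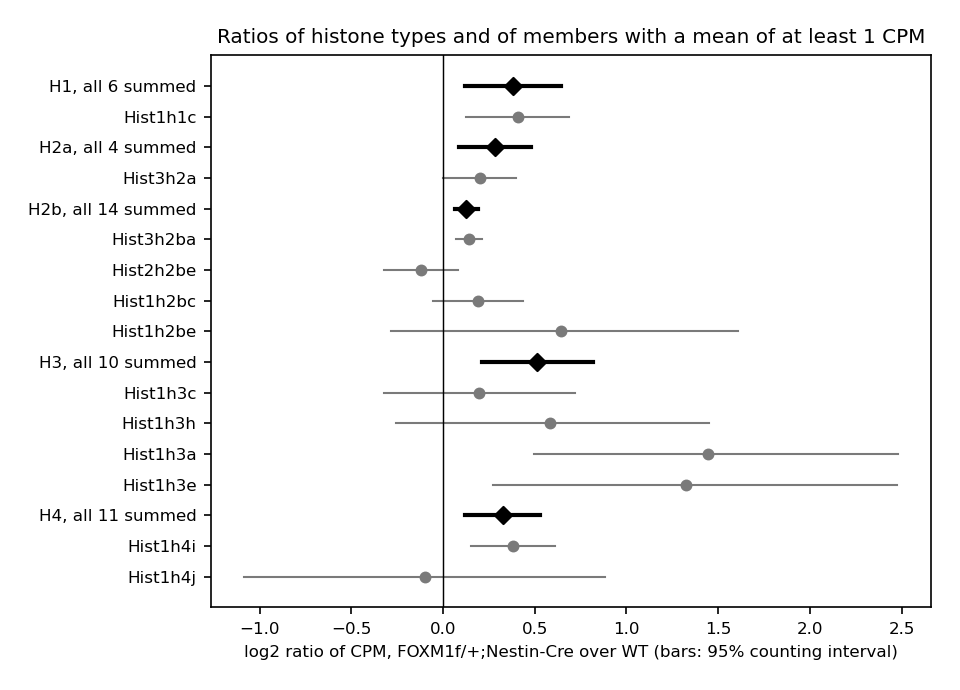
Log2 ratio of CPM, FOXM1f/+;Nestin-Cre over WT, for each histone type summed over all its members (black diamonds) and for the 12 members with a mean of at least 1 CPM (grey points), with 95% counting intervals as bars and 1 library per genotype. All 5 type sums lie to the right of 0, and Hist1h3a and Hist1h3e lie farthest to the right among the single genes.

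Of the 45 members, 27 had a ratio above 1 and 18 below, and 6 of the latter had the same number of reads in both libraries. A ratio above 1 was found in 45.6% of all genes. The interval lay wholly above 1 for 10 members, 22.2% of them, against 12.7% of all genes, and wholly below 1 for 0 members, against 15.7% of all genes. The 10 were Hist1h1c, Hist3h2a, Hist1h2ae, Hist1h2ac, Hist3h2ba, Hist1h2bk, Hist1h3a, Hist1h3e, Hist1h4i and Hist2h4, so each type had at least 1. A ratio of at least 2-fold upward was found in 10 members (22.2%, against 4.77% of all genes). At least 2-fold downward was found in 4 (8.89%, against 9.53% of all genes). Most members lie under 1 mean CPM, where wide ratios are common. Of the 33 members there, 8 were at least 2-fold higher (24.2%, against 15.3% of genes at that level). There, 4 were at least 2-fold lower (12.1%, against 28.6%). All 4 that were lower, Hist1h2bg, Hist1h2bl, Hist1h2bn and Hist1h4a, had at most 6 reads in a library. The median log2 ratio of all 45 was 0.20 and that of all 20421 genes −0.03, and the first does not move when Hist1h2ae is set at its bound.

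Only 12 members passed the minimum of 1 mean CPM, and these stand for 12 and not for all. They were Hist1h1c, Hist3h2a, Hist3h2ba, Hist2h2be, Hist1h2bc, Hist1h2be, Hist1h3c, Hist1h3h, Hist1h3a, Hist1h3e, Hist1h4i and Hist1h4j. The ratio was above 1 in 10 of them (48.4% of the 14557 genes at that level), the interval lay above 1 in 6 (16.5% of those genes) and below 1 in 0 (19.2%). Hist1h3a and Hist1h3e were the 2 at least 2-fold higher (0.522% of those genes), and 0 were at least 2-fold lower (1.83%). Both H3 genes have a WT level under 1 CPM and pass through their transgenic level alone. So does Hist1h2be, at 1.51 CPM in the transgenic and 0.969 in the WT library, and 9 members had at least 1 CPM in both. The 33 members under the minimum had 266 and 195 reads in sum, a ratio of 1.34 (1.11 to 1.62), 4 of them had an interval above 1 (3.34% of the 5864 genes at that level) and 0 had one below 1 (6.91%). The authors' deposited table marks 7 of the 45 genes as up (3.14% of all genes) and 0 as down (6.31%). The 7 are Hist1h2ac, Hist1h2ae, Hist1h2bj, Hist1h2bk, Hist1h3a, Hist1h3e and Hist2h4. The test behind those marks, made on 1 column against 1, was not given in the sources used here, and the smallest fold marked was 1.5.

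**Figure D3:**
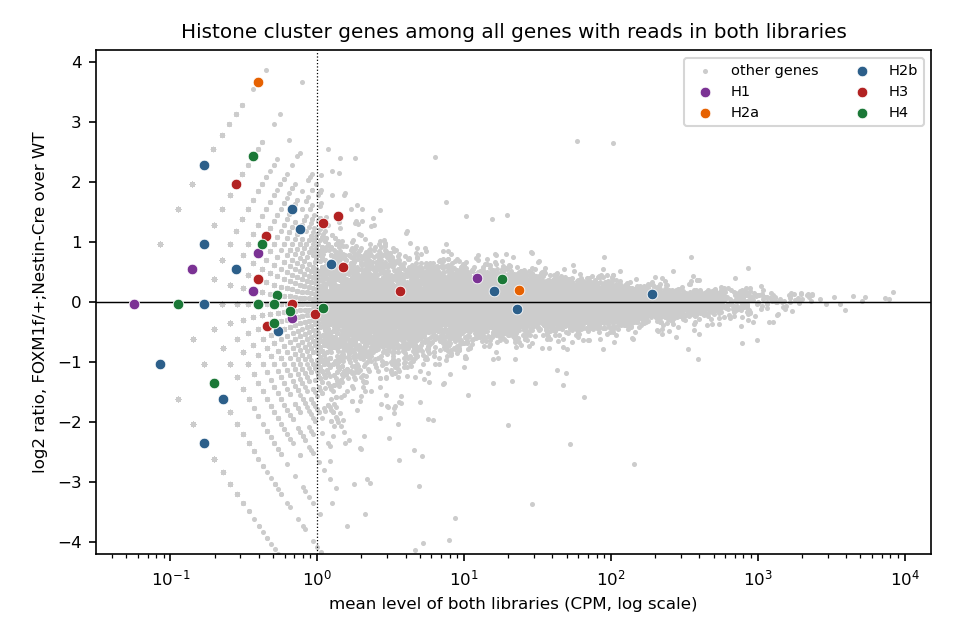
Log2 ratio of CPM, FOXM1f/+;Nestin-Cre over WT, against the mean level of both libraries (CPM, log axis), for genes with reads in both libraries. Of these 20073 genes, 44 are histone cluster genes coloured by type, the others are grey, and 20 lie beyond the plotted ratios. The members with at least 10 CPM lie close to the line of equal level at 0, and the wide ratios belong to members near or under 1 CPM (dotted line), where other genes of that level spread as widely.

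Members were then grouped by the end of their longest annotated transcript, a grouping made after the values had been seen and given without a test. The 14 members with a polyadenylation signal near the end held 5137 of the 5821 reads in the transgenic and 4519 of the 5052 in the WT library, and their ratio was 1.12 (1.07 to 1.16). The 11 members whose transcript ends within 100 bases of the stem-loop, with no signal, held 184 and 111 reads and had a ratio of 1.63 (1.28 to 2.08). Most reads therefore came from genes annotated with a polyadenylation signal, 3581 and 3189 of them from Hist3h2ba alone. The ratio of summed reads was larger in the thinly read genes that end within 100 bases of the stem-loop. Counted by single genes, the interval lay above 1 in 6 of the 14, 2 of the 11 and 2 of the other 20 members. Over all genes this was 12.7%. Hist1h2ae, Hist1h2ac and Hist2h4, with wide ratios on few reads, lie outside the 11. These 11 were Hist1h2bb, Hist1h2bf, Hist1h2bj, Hist1h2bk, Hist1h2bm, Hist1h3a, Hist1h3b, Hist1h3c, Hist1h3g, Hist1h4m and Hist1h4n. Without Hist1h3c, which holds the most of their reads, the ratio was 2.2 (1.57 to 3.12), and without Hist1h3a it was 1.48 (1.14 to 1.94). The remaining 20 members, annotated with neither feature, had 500 and 422 reads and a ratio of 1.16 (1.02 to 1.33). They mix transcripts that run further past a stem-loop, such as Hist1h3e (369 bases), with short ones without a match, such as Hist1h3h (411 bases long). For the latter the true end may not be annotated, so this class describes the annotation and not the messengers. The classes differ in type as well, and 5 of the 11 are H2B, 4 are H3 and 2 are H4 genes.

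Histone genes resemble each other closely, so reads of one copy can be lost or credited to another. For each gene the share of 50-base stretches of its transcripts that occur in no other annotated gene was counted. The median share was 56.8% in the 45 members of the table and 12.8% in 22 annotated genes of this name that the table does not hold and that were not analysed here, 14 of which are H2A genes. Of the genes above, Hist2h2be had 100%, Hist1h1c 91.5%, Hist3h2ba 77.9%, Hist1h4i 71.1%, Hist1h3c 53.0%, Hist1h3a 50.5% and Hist1h3e 26.6%. Hist1h3h had 6.08%, so its reads could belong to other H3 genes. How reads with several matches were counted was not given in the sources used here. Sums per type are less open to reads changing place within a type than single genes are. Exons overlapped another annotated gene in 6 of the 45 members and in 18 of the 22 other genes.

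**Figure D4:**
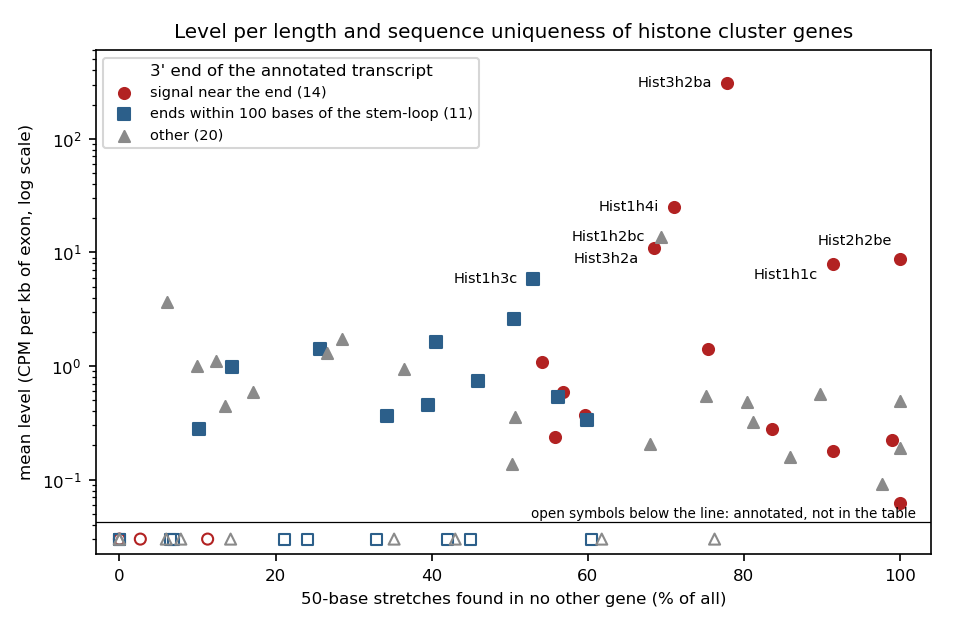
Mean level of both libraries in CPM per kb of exon (log axis) against the percentage of 50-base stretches found in no other gene, for the 45 histone cluster genes by class of annotated 3′ end, with the 22 annotated genes not in the table as open symbols below the line. The 7 genes with the highest levels per kb, named in the plot, lie above 50%, and the genes not in the table gather on the left.

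Promoters were taken from RefSeq (GRCm38.p6) as 250 bases before to 50 after the start, and 40 of the 45 members matched by symbol or identifier. Each motif was searched on both strands as written. CCAAT, the core of the binding site of the factor NF-Y, was present in 33 of the 40 windows (82.5%) and in 37.4% of all 32851 windows of this length. It was present in 6 of 6 H1, 4 of 4 H2A, 12 of 12 H2B and 8 of 8 H3 promoters and in 3 of 10 H4 promoters. TATAAA was present in 24 of 40 (60%) and in 13.6% of all windows. The octamer ATTTGCAT, a site known from H2B promoters, was present in 8 of 40 (20%) and in 1.74% of all windows, and all 8 were H2A (3 of 4) or H2B (5 of 12) genes. TTTGAA, the core of the cell cycle homology element that the MuvB complex binds, was present in 19 of 40 (47.5%) and in 17.9% of all windows, with 10 of 12 H2B genes among them. GTAAACA, a forkhead motif, was present in 1 of 40 (2.5%) and in 3.65% of all windows. A match describes these letters only.

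The difference between H4 and the other types is shown with the 150 bases before the start of 3 of the most read genes, CCAAT and TATAAA on either strand in capitals.
Hist3h2ba (H2B, chr11:58948761-58948910, + strand): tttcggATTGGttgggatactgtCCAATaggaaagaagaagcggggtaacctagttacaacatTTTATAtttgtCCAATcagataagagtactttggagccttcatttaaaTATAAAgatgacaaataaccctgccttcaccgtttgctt
Hist1h3c (H3, chr13:23745522-23745671, − strand): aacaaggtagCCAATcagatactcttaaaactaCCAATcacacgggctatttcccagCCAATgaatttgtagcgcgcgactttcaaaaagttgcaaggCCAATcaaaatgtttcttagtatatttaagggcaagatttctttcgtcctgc
Hist1h4i (H4, chr13:22041363-22041512, − strand): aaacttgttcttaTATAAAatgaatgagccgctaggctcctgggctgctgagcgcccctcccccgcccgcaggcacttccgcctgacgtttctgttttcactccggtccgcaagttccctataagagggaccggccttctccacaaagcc
Hist3h2ba and Hist1h3c hold several CCAAT matches, and Hist1h4i holds none in its 300-base window and 1 TATAAA. All 3 had more reads in the transgenic library, with ratios of 1.10, 1.15 and 1.30, and the interval of Hist1h3c included 1.

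By position, the 39 members on chromosome 13 had 1362 and 1031 reads in sum and a ratio of 1.30 (1.20 to 1.41). The 2 on chromosome 11, Hist3h2a and Hist3h2ba, had 4031 and 3574 reads and a ratio of 1.11 (1.06 to 1.16). The 3 on chromosome 3, Hist2h2be, Hist2h3c2 and Hist2h4, had 419 and 438 reads and a ratio of 0.940 (0.820 to 1.08). The interval of the large cluster on chromosome 13 thus lies above those of the other 2 clusters. Each of those sums rests mainly on 1 gene. Hist2h2be had 392 and 418 of the reads on chromosome 3, and Hist3h2ba 3581 and 3189 of those on chromosome 11. Hist2h4, also on chromosome 3, had a ratio of 5.40 (1.18 to 50.2). Hist4h4, alone on chromosome 6, had 9 reads in each library. Many histone genes lie head to head, and 13 pairs have starts within 1000 bases, 12 of them an H2A with an H2B gene. Both genes were in the table for 4 pairs. Hist1h2ac and Hist1h2bc start 251 bases apart and had 13 and 1 against 303 and 261 reads. Hist1h2ae and Hist1h2bg start 176 bases apart and had 15 and 0 against 1 and 2 reads. In the first pair the intervals of the ratios, 1.92 to 543 and 0.963 to 1.35, do not overlap, and in the second too few reads were present to tell. The other pairs were Hist1h2bl with Hist1h2ai and Hist1h2bh with Hist1h3f, none of whose intervals lies off 1.

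Histone supply also needs factors that make and process the messengers, and 24 such genes were all above 1 mean CPM. The interval lay above 1 in 6, below 1 in 2 and included 1 in 16. Over all genes at that level it lay above 1 in 16.5% and below 1 in 19.2%. The median log2 ratio was 0.05 against −0.01 for all genes at that level. Slbp had 955 reads in the transgenic and 774 in the WT library, a ratio of 1.21 (1.10 to 1.33). Ccne1 and Ccne2, the cyclins E that with Cdk2 activate histone transcription, had ratios of 1.46 (1.21 to 1.76) and 1.39 (1.15 to 1.69), and Cdk2 1.20 (1.08 to 1.33). Srrt, a partner of the cap-binding complex, had 5045 and 4483 reads and a ratio of 1.11 (1.06 to 1.15). Yy1, a transcription factor, and Lsm11, a component of the U7 particle that cuts histone messengers, are named as the 2 below 1, with ratios of 0.911 (0.859 to 0.966) and 0.862 (0.783 to 0.948). Npat, the coactivator of histone gene clusters, had 395 and 338 reads and a ratio of 1.15 (0.990 to 1.33), and Fip1l1, the sixth above 1, had 1.07 (1.002 to 1.15). Yy1, Lsm11, Npat and Fip1l1 were named after their values were seen.

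Replication-independent histone variants, which are expressed outside S phase as well and have ordinary poly(A) tails, were read far more deeply, with 72385 and 64795 reads over 12 genes. H2afz had 11340 reads in the transgenic and 9452 in the WT library, a ratio of 1.18 (1.15 to 1.21). H1f0 had a ratio of 1.16 (1.13 to 1.19), H2afv 1.15 (1.11 to 1.20) and H2afx, whose messenger can end in either way, 1.21 (1.14 to 1.27). H1fx was the 1 variant below, with 371 and 602 reads and a ratio of 0.606 (0.531 to 0.690). All 12 were above 1 mean CPM, and 7 lay above 1 (against 16.5% of all genes at that level), 1 below (against 19.2%) and 4 included 1. The median log2 ratio was 0.14, against −0.01 for all genes at that level. The ratio of the summed variants, 1.10 (1.086 to 1.109), was close to the 1.13 (1.09 to 1.18) of the cluster genes, and the intervals overlap. Without Hist3h2ba the cluster genes stood at 1.18 (1.110 to 1.26), an interval just above that of the variants, by 1.110 against 1.109. The most read variant, H3f3b (24147 and 22390 reads, ratio 1.06), was kept in. A sum of the variants without H3f3b was not made, so these values do not show that the 2 groups differ.

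The 27 histone chaperones and assembly factors were all above 1 mean CPM. Of these, 13 had an interval above 1 (against 16.5% of all genes at that level), 2 below (against 19.2%) and 12 including 1. The median log2 ratio was 0.05, against −0.01 for all genes at that level. Mcm2 is counted both here and among the genes of S phase below. Nasp, which holds free H3 and H4, had 5090 and 4387 reads and a ratio of 1.14 (1.09 to 1.19). Chaf1b, a subunit of the factor that places H3 and H4 on new DNA, had a ratio of 1.37 (1.24 to 1.52), Hat1, the acetyltransferase of new H4, 1.28 (1.18 to 1.40), and Nap1l1, a chaperone of H2A and H2B, 1.29 (1.25 to 1.33). The 2 below 1, named after their values were seen, were Nap1l2, a neuronal relative of Nap1l1, at 0.775 (0.678 to 0.886) and the importin Ipo4 at 0.913 (0.858 to 0.972). The 17 genes for decay and tailing of histone messengers were also all above 1 mean CPM. Of these, 3 lay above 1 (against 16.5% of all genes at that level), 1 below (against 19.2%) and 13 included 1. These were Lsm2 at 1.21 (1.11 to 1.32), Lsm6 at 1.12 (1.04 to 1.22) and Lsm4 at 1.09 (1.02 to 1.17), parts of the ring that starts decay, and the poly(A) polymerase Papd5 at 0.807 (0.728 to 0.894).

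Of 29 genes of S phase, 28 passed the minimum, and 26 of these had an interval above 1, 0 below and 2 including 1. Among all genes that passed, 16.5% lay above 1 and 19.2% below. Pcna, the replication clamp, had 4771 and 3828 reads and a ratio of 1.22 (1.17 to 1.28). The helicase subunits Mcm3 and Mcm2 had ratios of 1.38 (1.28 to 1.48) and 1.33 (1.24 to 1.42), Rrm2, which makes deoxynucleotides, 1.26 (1.19 to 1.34), and Uhrf1, which maintains DNA methylation, 1.29 (1.21 to 1.38). Dnmt1, Rfc3 and Fen1 are named after their values were seen. Dnmt1 and Rfc3 were the 2 that included 1, at 0.986 (0.943 to 1.03) and 1.06 (0.975 to 1.15). Fen1, under the minimum, had 3 and 13 reads and a ratio of 0.227 (0.0414 to 0.825). The median log2 ratio of the 28 was 0.29, and their reads with those of Fen1 summed to a ratio of 1.19 (1.18 to 1.21). The intervals of H1, H2A, H3 and H4 sums include that value, and the H2B sum, 1.09 (1.05 to 1.14), lies below it.

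The markers of the cells that carry these genes moved between the libraries too. Markers of dividing progenitors summed to 1912 CPM (transgenic) and 1529 CPM (WT), with an interval above 1 in 5 of 6 (Vim, Nes, Top2a, Mki67 and Sox2) and Pax6 at 1.05 (0.976 to 1.14). Markers of neurons summed to 6109 and 6576 CPM, with an interval below 1 in 5 of 5. Their ratios ran from 0.794 (0.776 to 0.811) for Mapt to 0.985 (0.973 to 0.997) for Tubb3, a difference of small size. Erythroid markers summed to 663 and 315 CPM (4 of 5 above 1), microglial markers to 17.5 and 26.2 CPM (3 of 3 below 1) and endothelial markers to 69.5 and 77.2 CPM (1 of 3 below 1). No marker was at 0 reads in either library, and all had a mean of at least 1 CPM. Over all genes at that level, the interval lay above 1 in 16.5% and below 1 in 19.2%. The part of these cell types, of choroid plexus and of the difference in sex in the histone values was not tested.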

How the data were processed

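RNA was isolated with Trizol, and each library was built from 2 ug, per the labels. Bowtie2 2.2.3, TopHat2 2.0.12, HTSeq 0.6.0 and the build mm9 are named, per the submitters' processing notes, but coordinates of all 45 members equal GRCm38 (GENCODE M21). The annotation release, strand setting and treatment of reads with several matches were not given in the sources used here. The deposited table holds, per the file headers, raw read counts and normalized values, 1 column of each per genotype. The normalized values the authors deposited are CPM, over totals of 17859653 reads (FOXM1f/+;Nestin-Cre) and 17547268 (WT), with a count of 0 entered as 0.5. The authors also deposited a fold change, its log2, and p-values and adjusted p-values that compare 1 column with 1 column.

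Each ratio is CPM in FOXM1f/+;Nestin-Cre over WT with an exact conditional (Clopper-Pearson) 95% interval. Reads carry no molecular identifiers, so intervals and the floor of 3 reads (0.168 and 0.171 CPM) cover counting error only. No replicate test was possible and no p-value was computed. Fold counts use genes whose mean reaches 1 CPM, with no minimum as an alternative. The histone genes, the companion lists and the alternatives were chosen with earlier results of these data known. All histone genes were accounted for. From each companion list up to 5 genes whose interval excludes 1 were named, largest difference over counting error first, and genes named outside that rule are pointed out. Alternatives were TMM and RLE scaling, other minimums and folds, and leaving out the most read gene or, added after seeing the data, genes with under 50% unique stretches and other limits for the 3′ end classes. On data simulated for this comparison (14557 genes, counting error alone), intervals held the true ratio for 95.4% of genes, and at least 2-fold was called for 100% of genes at 3-fold, 1% at 1.5-fold and 0.286% of unchanged genes. Python 3.11.15, NumPy 2.4.6, pandas 2.3.3, SciPy 1.17.1, Matplotlib 3.10.9, R 4.3.3 and edgeR 4.0.16 (scaling factors only) were used.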

Additional observations from a re-analysis of the deposited data

How the results depend on the processing

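No paired analysis was possible because the columns name a genotype and no sample, and no replicate could be left out with 1 column per genotype. The histone sums per type and over all members and the medians of the companion lists kept their direction under TMM and RLE scaling, and 27 of the 45 histone genes had a ratio above 1 under each scaling. The median log2 ratio of all genes stayed near 0 but changed sign, from −0.01 to 0.01 (TMM), 0.02 (RLE) and 0.0019 (genes at 10 CPM or more). Of the sums of reads, 4 no longer had an interval off 1, namely those without their most read gene for H1 (1.13), H2B (1.04) and H4 (1.08), and for the members with neither 3′ end feature (1.20, 0.971 to 1.49, without Hist1h2bc). The H2A sum moved from 1.22 to 5.05 without Hist3h2a, and the share of reads on histone genes from 0.0326% and 0.0288% to 0.0125% and 0.0106% without Hist3h2ba. The sum of the members that end within 100 bases of the stem-loop moved from 1.63 to 2.2 without Hist1h3c. It was also 2.2 with the end within 60 bases. Both alternatives were chosen after seeing the data. The median log2 ratio of the replication-independent variants was 0.14, and 0.08 at a mean of 10 CPM or more. The H3 interval no longer lay wholly above the H2B interval without members under 50% unique stretches.

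The count of histone genes at least 2-fold higher was 2, and it was 10 with no minimum, 0 with at least 1 CPM in both libraries, 0 at a mean of 10 CPM or more, and 6 with the interval as the rule. That of genes at least 2-fold lower was 0, and 4 with no minimum. Intervals above 1 numbered 6, and 10 with no minimum, and 4 under each of the 2 stricter minimums. Over all genes, 76 were at least 2-fold higher and 266 lower. These were 975 and 1946 with no minimum, 25 and 108 with at least 1 CPM in both, 6 and 20 at a mean of 10 CPM or more, 369 and 762 at 1.5-fold, and 2398 and 2801 by the interval. At 1 read to 3 reads a member's interval spans more than 10-fold, so depth limits most single genes here.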
